A study of Mus musculus with 16 samples.

Results

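The oxidative phosphorylation subunits described here are nuclear-encoded proteins of the 5 complexes of the inner mitochondrial membrane that pass electrons from nutrients to oxygen and make ATP. Genes were taken by symbol (Ndufa, Ndufb, Ndufs, Ndufv and Ndufc with a number, Uqcr, Cox4 to Cox8, the Sdh genes and Atp5), each with the brightest probe set that has a single gene symbol, which gave 81 of 19938 genes. They comprised 35 genes of complex I (NADH dehydrogenase), 4 of complex II (succinate dehydrogenase), 8 of complex III (the cytochrome bc complex), 17 of complex IV (cytochrome c oxidase) and 17 of complex V (ATP synthase). Ndufa4 carries a complex I name and was counted there, although its protein is now placed in complex IV. Cox7c and Ndufb4 were measured by probe sets that carry more than 1 symbol and were not analysed here. Ndufab1 and Cyc1 were measured, but their symbols lie outside the rule and they were not counted. Subunit genes of mitochondrial DNA were looked up and not found among the measured genes.

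Expression was measured on 16 Affymetrix gene arrays as log2 levels, on which a difference of 1 is a 2-fold change. All cells were mouse Pitx3GFP/+ cells of a mixed C57BL/6 x 129/Ola strain, in which green fluorescent protein replaces a copy of Pitx3, a transcription factor of midbrain dopaminergic neurons. The design text states that GFP-positive cells were collected by sorting. The treated group (5 biological replicates) was derived from induced pluripotent stem cells (iPSCs) with recombinant human WNT1, a secreted signalling protein, and DKK3, a secreted Dickkopf protein. The control group (5 biological replicates) was derived from iPSCs without them. Primary neurons came from the ventral midbrain of embryos at E14.5 (3 technical replicate arrays) and at E13.5 (3 technical replicate arrays), so that each stage is 1 sample. The labels do not say whether the iPSC replicates were separate cultures or lines, nor how many embryos were pooled, so the p-values cover variation among these samples, which may be technical. In bulk RNA, fewer cells of a type and less RNA per cell cannot be told apart.

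In neurons, most ATP is made by these complexes. Complexes I and II pass electrons to ubiquinone, complex III passes them on to cytochrome c, complex IV hands them to oxygen, and complex V uses the proton gradient built on the way to make ATP. Some subunits of complex IV exist in several forms, a widespread form and paralogs that are largely restricted to heart and skeletal muscle or to testis, or that are induced when oxygen is low.

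The iPSC-derived cells did not match the primary neurons in their defining markers. The mean log2 level of 8 midbrain dopaminergic genes was 5.65 to 8.01 on treated arrays, 5.80 to 7.61 on control arrays and 9.63 to 10.01 on primary arrays, and that of 10 pan-neuronal genes was 6.01 to 8.09, 5.99 to 7.75 and 10.15 to 10.50 in the same groups. The arrays numbered 5 had the highest dopaminergic and neuronal means of both iPSC-derived groups. Markers of mesenchyme were higher in control cells than in primary neurons for 7 of 7 genes, and those of astrocytes and radial glia for 6 of 7. The background was 19.3% of all genes. The part of these cell types in the differences between iPSC-derived and primary cells was not tested.

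Treatment with WNT1 and DKK3 gave no detectable change of any subunit gene. None of the 81 genes was higher and none lower than in control cells (limma with Benjamini-Hochberg adjustment over 19938 genes, threshold 0.05), against a background of 0% of all genes in each direction. At an unadjusted p under 0.05 there was 1 of 81 genes (300 of all 19938 genes), and a limma fit with the replicate number as a block or with a mean-variance trend also called 0 of the 81. The median difference, treated minus control, was 0.04 for the subunits and 0.02 for all genes. Of the 81 genes, 57 had a difference above 0. The count was 49 with array medians subtracted and 43 after quantile normalization. Leaving out 1 array at a time gave 35 (without treated replicate 2, where the subunits' median was -0.01) to 67 (without control replicate 1). The 95% interval stayed within 0.5 in either direction for 74 of the 81.

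The gene with the unadjusted p of 0.037 was Sdha, the flavoprotein of complex II that oxidises succinate. Its log2 level was 9.74, 9.64, 9.46, 9.61 and 9.53 on the treated arrays, against 9.47, 9.36, 9.39, 9.52 and 9.27 on the control arrays. The groups overlapped, and the difference was 0.19 (95% interval 0.01 to 0.37, limma adjusted p = 1). Ndufa9, an accessory subunit of complex I, was measured at 8.97, 9.53, 8.97, 9.14 and 9.01 in treated cells, against 8.94, 9.02, 9.06, 8.97 and 8.62 in control cells. Its difference of 0.20 ± 0.13 (SE) was within the spread between replicates, with treated array 2 highest and control array 5 lowest. Atp5a1, the alpha subunit of the catalytic head of ATP synthase, averaged 10.76 ± 0.09 in treated and 10.58 ± 0.12 in control cells (SD, n = 5 each), a difference of 0.18 with an interval of -0.01 to 0.37. In the other direction, Sdhc, a membrane anchor of complex II, differed by -0.12 (interval -0.28 to 0.04).

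The 7 genes whose interval reached beyond 0.5 were mostly the variable paralogs. The widest were those of Cox7b2, a testis form of a cytochrome c oxidase subunit, at -0.11 (-1.39 to 1.17), and of Ndufa4l2, a hypoxia-induced relative of Ndufa4, at -0.12 (-1.35 to 1.10). Cox8b (-0.83 to 0.49), Cox6b2 (-0.46 to 0.65), Cox7a1 (-0.55 to 0.52), Cox5a (-0.40 to 0.58) and Ndufb3 (-0.30 to 0.54) had narrower intervals. For these 7 genes a treatment effect inside the interval was not detectable with 5 arrays a group.

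**Figure D1:**
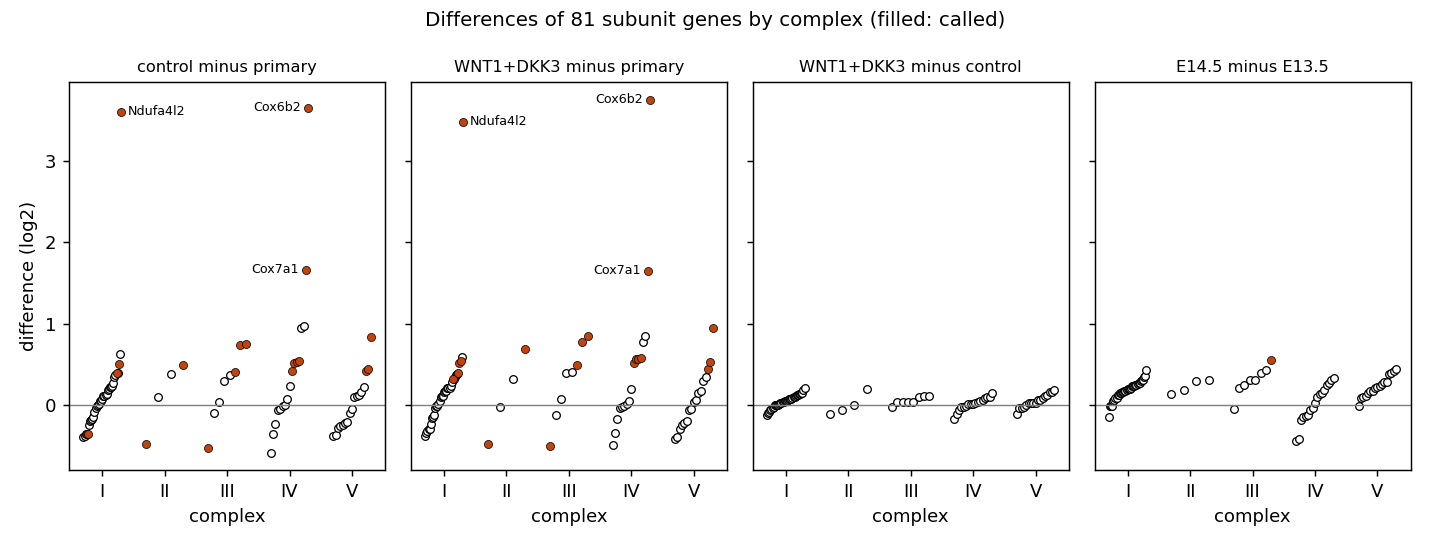
Difference (log2) of each of the 81 subunit genes, by complex, in 4 comparisons, with filled points for called genes (limma adjusted p under 0.05, or, for E14.5 minus E13.5, a difference of at least 0.5 with no overlap of arrays). Cox6b2, Ndufa4l2 and Cox7a1 stand far above the other genes in both comparisons with primary neurons, and no point is filled for WNT1+DKK3 minus control.

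Against primary neurons, the subunits did not move as a block: a few paralogs were much higher in the iPSC-derived cells and most widespread subunits differed little. In control cells 16 of 81 genes were higher and 4 lower than in primary neurons, with 61 not called, against a background of 19.3% of all genes higher and 22.5% lower. The share of subunits called higher was thus near the background, and the share called lower was below it. In treated cells 18 were higher and 2 lower, against a background of 19.9% and 21.3%. Of the 4985 genes in the brightest 25%, 1561 were higher and 1169 lower in control cells, and 1627 and 1142 in treated cells. These are larger shares than among the subunits in both directions. With array medians subtracted, the split of the subunits was 11 higher and 18 lower in control cells and 13 higher and 16 lower in treated cells. Both comparisons use the same 2 primary samples. The median difference of the subunits was 0.09 in control and 0.15 in treated cells, beside -0.11 and -0.09 for all genes and 0.09 and 0.11 for the brightest 25% of genes, in which 74 of the 81 subunits lie. Subtracting each array's median moved the median of all genes to -0.30 in both comparisons and that of the subunits to -0.09 in control and -0.06 in treated cells, so the sign of the subunits' median depends on the scaling.

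Of the 81 genes, Cox6b2, Ndufa4l2 and Cox7a1 were the 3 called with a difference of 1 or more, in both comparisons. Cox6b2 encodes the testis form of subunit 6b of cytochrome c oxidase. Its log2 level was 10.29, 9.64, 9.38, 8.99 and 9.87 on the treated arrays and 9.98, 9.98, 9.36, 9.10 and 9.27 on the control arrays, against 5.73, 5.19 and 6.07 at E14.5 and 5.67, 6.59 and 6.04 at E13.5. Every iPSC-derived array lay above every primary array by more than the range within either set. Relative to primary neurons, Cox6b2 was higher by 3.66 ± 0.33 (SE) in control cells, a 12.6-fold difference (limma adjusted p = 3.1e-06), and by 3.75 ± 0.33 in treated cells (adjusted p = 2.7e-06). Its widespread counterpart Cox6b1 lay between 12.09 and 12.24 on the 10 iPSC-derived arrays and between 12.09 and 12.43 on the 6 primary arrays, with a difference of -0.02 in control cells and -0.01 in treated cells.

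Ndufa4l2 is known as a target of hypoxia-inducible factors, and its protein has been reported to lower respiration. Its level was 10.07, 8.64, 9.38, 8.08 and 10.98 on the treated arrays and 9.48, 9.35, 9.47, 8.51 and 10.94 on the control arrays, against 5.87, 6.03 and 5.90 at E14.5 and 5.40, 6.29 and 6.17 at E13.5. It was the most variable of these genes among iPSC-derived arrays, with both arrays numbered 5 highest and both arrays numbered 4 lowest, yet no iPSC-derived array overlapped a primary one. The difference was 3.61 ± 0.70 in control cells (limma adjusted p = 0.0013) and 3.49 ± 0.70 in treated cells (adjusted p = 0.0017). Ndufa4 itself differed by -0.39 in control and -0.38 in treated cells and was not called (adjusted p = 0.10 and 0.11).

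Cox7a1 encodes the form of subunit 7a typical of heart and skeletal muscle. Its level was 8.42, 8.58, 7.50, 7.43 and 8.04 on the treated arrays and 8.30, 8.37, 7.996, 7.78 and 7.61 on the control arrays, against 6.66, 5.81 and 6.29 at E14.5 and 6.63, 5.88 and 6.82 at E13.5. The iPSC-derived arrays again lay above all primary arrays. The difference was 1.66 ± 0.31 in control cells, or 3.17-fold (limma adjusted p = 0.00095), and 1.65 ± 0.31 in treated cells (adjusted p = 0.0010). The liver-type form Cox7a2, which is widespread, differed by -0.24 and -0.18 and was not called. Cox7a2l, a related protein known for a part in supercomplexes of complexes III and IV, was higher by 0.53 ± 0.13 in control (adjusted p = 0.0055) and 0.58 ± 0.13 in treated cells (adjusted p = 0.0032).

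The other paralogs were not called. Cox6a2 (muscle) differed by 0.08 in control cells and 0.01 in treated cells, Cox4i2 (lung, and hypoxia-induced) by -0.05 and 0.04, and Cox8c (testis) by -0.01 in control cells. Cox8b, a muscle form of subunit 8, was at 5.48, 5.46, 6.13, 6.53 and 6.26 on the treated arrays and 6.35, 5.20, 6.41, 6.77 and 5.98 on the control arrays, against 5.07 to 5.38 on the 6 primary arrays. Its difference of 0.95 in control and 0.78 in treated cells missed the threshold (limma adjusted p = 0.061 and 0.12). Cox7b2, a testis form, reached 7.14 on treated array 2, 6.82 on control array 1 and 6.08 on control array 2, while the remaining 7 iPSC-derived arrays lay between 4.18 and 5.32 and the primary arrays between 3.97 and 4.91. Its mean difference of 0.96 in control cells was not called (limma adjusted p = 0.30). Probe sets of Cox8c, Cox7b2, Cox8b and Cox4i2 were dim on most arrays (below the median of all named genes on 16, 14, 13 and 15 arrays), where small differences are poorly measured.

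**Figure D2:**
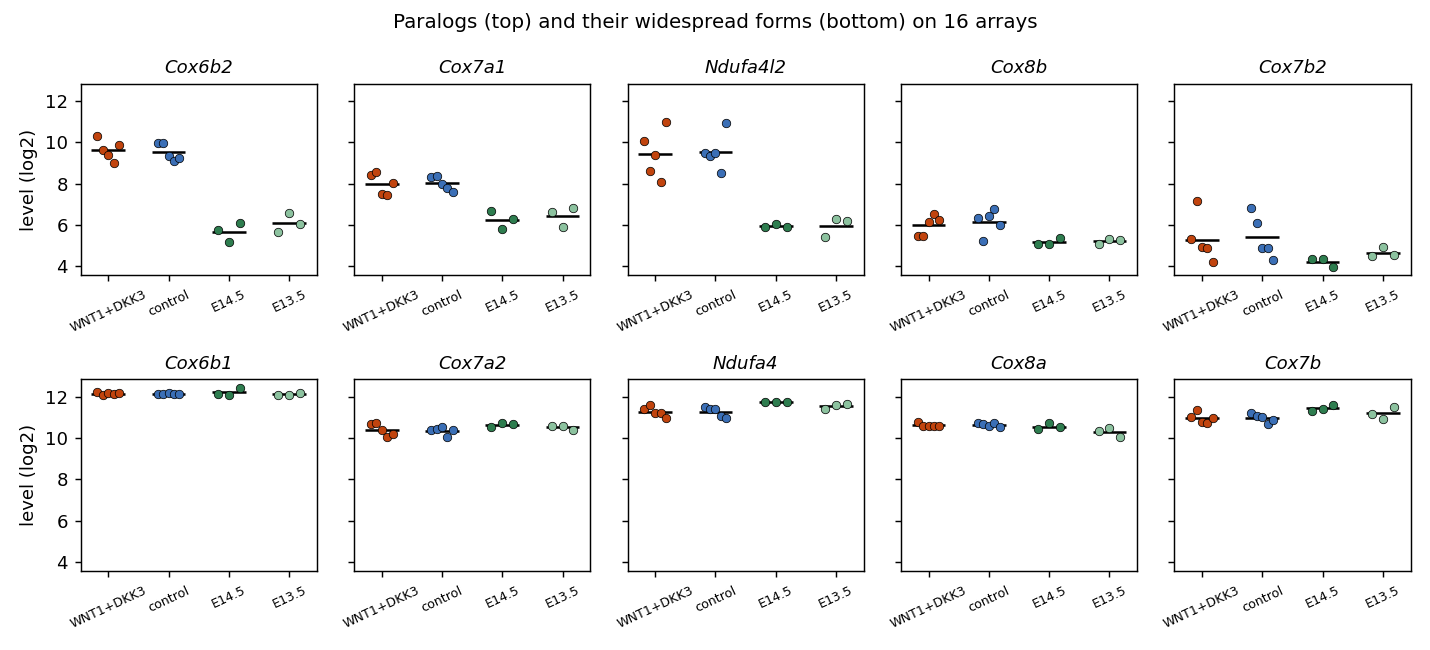
Log2 level of 5 paralogs (top row) and of their widespread forms (bottom row) on each array, in the order WNT1+DKK3, control, E14.5 and E13.5, with a point per array and a line at the group mean. Cox6b2, Cox7a1 and Ndufa4l2 are high on all 10 iPSC-derived arrays, Cox7b2 is high on 3 of them, and the widespread forms lie close together in all groups.

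Marker genes of candidate cell types and states were read beside these paralogs. Of 32 glycolysis and hypoxia genes, 23 were higher and 0 lower in control cells than in primary neurons. The background was 19.3% of all genes higher and 22.5% lower. Largest were Epas1, a hypoxia-inducible factor, at 3.67 ± 0.75, Slc2a1, a glucose transporter, at 3.60, and Egln3, an oxygen-sensing prolyl hydroxylase, at 3.11. The mean level of that list was 8.98 to 9.42 on treated arrays and 8.997 to 9.297 on control arrays, against 7.75 to 7.98 on the primary arrays. Epas1 itself was lowest on the arrays numbered 5 (8.05 treated, 7.84 control), where Ndufa4l2 was highest, and highest on those numbered 4 (10.63 treated, 10.30 control), where Ndufa4l2 was lowest. The mean of the whole list, by contrast, was highest on the arrays numbered 5 (9.42 treated, 9.30 control). On the arrays numbered 4 that mean was 8.997 in control cells, the lowest, and 9.01 in treated cells, above only array 2 (8.98). Of 10 striated muscle genes, 3 were higher in control cells (Mylpf 1.38, Actc1 1.09 and Des 1.02) and 5 in treated cells. The background was 19.3% of all genes higher in control cells and 19.9% in treated cells. The mean of the muscle list was 6.56 to 7.60 on treated and 6.36 to 6.82 on control arrays, against 5.72 to 6.14 on primary arrays, and Ckm and Mb, which mark mature muscle, averaged 6.65 and 6.65 in treated cells and 6.56 and 6.61 in control cells, against 6.80 and 6.32 in primary neurons, with no call. All 6 pluripotency genes had a higher mean in control cells than in primary neurons, with a median difference of 2.18. Of these 6, 0 were called in limma at an adjusted p under 0.05, and 3 had an unadjusted p under 0.05 in control cells. Their mean was 8.87 on treated array 2, 7.99 on control array 1 and 8.33 on control array 2. It was 5.21 and 5.45 on treated and control array 5, and 5.04 to 5.80 on the primary arrays. On the other 5 iPSC-derived arrays, where Cox7b2 lay between 4.88 and 5.32, that mean was 7.53, 7.64 and 7.45 on treated arrays 1, 3 and 4 and 7.81 and 7.26 on control arrays 3 and 4. The part of these cells and states in the paralogs' levels was not tested.

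The bases just before the gene start are shown for the paralogs that differed, their widespread forms and the widespread subunit with the largest call, since their levels differed as given above. Sequences are 250 bases, 5′ to 3′ in the direction of the gene, from RefSeq (GRCm38.p6): Cox6b2 (chr7:4753095-4753344, minus strand), Cox6b1 (chr7:30626115-30626364, minus strand), Cox7a1 (chr7:30183921-30184170, plus strand), Cox7a2 (chr9:79759854-79760103, minus strand) and Atp5g2 (chr15:102671048-102671297, minus strand). Capitals mark letters of 3 motifs searched on both strands: GCGCA and GCGC with any 1 base between them, a site of nuclear respiratory factor NRF1, CCGGAA, a core of ETS-family sites such as those of Gabpa, and ACGTG, a core of hypoxia response elements.
Cox6b2: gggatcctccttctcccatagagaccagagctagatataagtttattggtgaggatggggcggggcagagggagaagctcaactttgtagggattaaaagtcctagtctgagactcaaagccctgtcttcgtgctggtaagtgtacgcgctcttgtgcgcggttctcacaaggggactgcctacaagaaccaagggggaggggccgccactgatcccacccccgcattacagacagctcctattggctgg
Cox6b1: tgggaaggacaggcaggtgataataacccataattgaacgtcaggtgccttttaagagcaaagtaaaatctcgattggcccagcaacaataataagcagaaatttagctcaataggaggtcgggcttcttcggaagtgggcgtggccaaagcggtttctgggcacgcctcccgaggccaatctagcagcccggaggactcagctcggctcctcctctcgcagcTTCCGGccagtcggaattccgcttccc
Cox7a1: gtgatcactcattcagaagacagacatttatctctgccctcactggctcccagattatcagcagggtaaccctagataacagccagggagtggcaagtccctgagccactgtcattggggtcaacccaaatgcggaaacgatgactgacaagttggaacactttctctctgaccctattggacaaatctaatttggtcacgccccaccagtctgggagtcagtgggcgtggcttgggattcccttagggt
Cox7a2: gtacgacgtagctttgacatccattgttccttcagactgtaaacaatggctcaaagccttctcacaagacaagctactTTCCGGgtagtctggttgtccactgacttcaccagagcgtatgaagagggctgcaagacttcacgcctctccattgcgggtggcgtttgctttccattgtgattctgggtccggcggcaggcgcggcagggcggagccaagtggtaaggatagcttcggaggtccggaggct
Atp5g2: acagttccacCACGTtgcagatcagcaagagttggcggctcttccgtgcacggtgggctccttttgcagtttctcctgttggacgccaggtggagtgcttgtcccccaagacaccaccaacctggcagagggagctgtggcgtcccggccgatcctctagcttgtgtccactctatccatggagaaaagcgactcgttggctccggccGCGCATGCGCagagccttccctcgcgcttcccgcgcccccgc

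Of the 81 genes, 66 had an entry in the promoter table. The NRF1 letters stood in 11 of these 66 windows (16.7%), against 3.86% of 27025 windows of all genes, the ETS letters in 28.8% against 12.2%, and the hypoxia letters in 21.2% against 16.6%. The median number of CpG pairs was 14 in subunit windows and 6 in all windows. All 3 motifs contain CpG pairs. The background windows were not matched for CpG pairs or limited to measured genes, so the part of CpG content in these shares was not tested. The windows of Cox6b2 and Cox7a1 held none of the 3 motifs and had 8 and 4 CpG pairs. Those of Cox6b1 and Cox7a2 each held the ETS letters and 14 pairs. That of Atp5g2 held the NRF1 and hypoxia letters and 19 pairs. Windows of the widespread subunits Cox5b, Cox8a, Atp5b and Uqcr10 also held none of the 3 motifs, with 5 CpG pairs in Uqcr10. That of the muscle paralog Cox8b held the hypoxia letters. Lack of the motifs was thus not particular to the paralogs that differed. A match of letters is a description of the window and not a binding site. No entry for Ndufa4l2 was in the table used here.

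Calls of widespread subunits were all below 1 in size and occurred in each of the 5 complexes. Counted with the paralogs, in complex I 3 of 35 genes were higher and 2 lower in control cells, in complex II 1 and 1 of 4, in complex III 3 and 1 of 8, in complex IV 6 and 0 of 17, and in complex V 3 and 0 of 17. In treated cells the counts were 5 and 0, 1 and 1, 3 and 1, 6 and 0, and 3 and 0 in the same order. The background over all genes was 19.3% higher and 22.5% lower in control cells and 19.9% and 21.3% in treated cells. Of the 20 calls in each comparison, 8 in control cells and 10 in treated cells were kept in all 21 alternative settings, and each of these was higher in the iPSC-derived cells. They were Atp5g2, Cox5b, Cox6b2, Cox6c, Cox7a1, Ndufa4l2, Uqcr10 and Uqcrq in both, with Cox7a2l and Sdha added in treated cells.

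Atp5g2, a gene for the c subunit of the rotating ring of ATP synthase, was at 11.50, 11.51, 11.56, 11.25 and 11.22 on the treated arrays and 11.51, 11.31, 11.43, 11.16 and 11.08 on the control arrays, against 10.71, 10.27 and 10.76 at E14.5 and 10.62, 10.49 and 9.93 at E13.5. No iPSC-derived array overlapped a primary one. The difference was 0.83 ± 0.15 in control (limma adjusted p = 0.00060) and 0.95 ± 0.15 in treated cells (adjusted p = 0.00023), and 2 further probe sets of Atp5g2 gave 0.74 and 0.86 in control cells. Atp5g1 and Atp5g3, which encode the same mature protein, were not called, with differences of 0.12 and -0.22 in control cells and 0.17 and -0.06 in treated cells.

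Uqcr10 and Uqcrq, both small accessory subunits of complex III, were higher in both iPSC-derived groups. Uqcr10 was at 11.68, 11.66, 11.42, 11.32 and 11.46 on the treated arrays and 11.76, 11.46, 11.46, 11.31 and 11.40 on the control arrays, against 10.97, 11.06 and 10.76 at E14.5 and 10.71, 10.78 and 10.11 at E13.5. The difference was 0.75 ± 0.15 in control cells (limma adjusted p = 0.0018) and 0.78 ± 0.15 in treated cells (adjusted p = 0.0014). Uqcrq was higher by 0.73 ± 0.15 in control (adjusted p = 0.0023) and by 0.84 ± 0.15 in treated cells (adjusted p = 0.00091), again with no overlap of arrays. In the same complex Uqcrfs1, the Rieske iron-sulfur protein that takes electrons from ubiquinol, went the other way. Its level was 8.87, 9.04, 8.80, 8.74 and 8.63 on the treated arrays and 8.83, 8.93, 8.72, 8.92 and 8.52 on the control arrays, against 9.36, 9.32 and 9.20 at E14.5 and 9.61, 9.19 and 9.25 at E13.5. All iPSC-derived arrays lay below all primary arrays, and the difference was -0.54 ± 0.13 in control (adjusted p = 0.0070) and -0.51 ± 0.13 in treated cells (adjusted p = 0.0098). The call was lost in control cells when E14.5 alone stood for primary neurons and in treated cells when either stage stood alone.

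In complex II, Sdha and Sdhb differed in opposite directions. Sdha was at 9.01, 8.86 and 9.31 at E14.5 and at 8.98, 8.74 and 8.55 at E13.5, beside the iPSC-derived values given above, and was higher by 0.49 ± 0.12 in control (limma adjusted p = 0.0047) and 0.69 ± 0.12 in treated cells (adjusted p = 0.00048). Sdhb, the iron-sulfur subunit of the same enzyme, was at 9.07, 9.54, 9.35, 9.17 and 9.41 on the treated arrays and 9.24, 9.57, 9.49, 9.24 and 9.05 on the control arrays, against 10.25, 9.72 and 9.85 at E14.5 and 9.58, 9.84 and 9.53 at E13.5. The Sdhb arrays overlapped, and the difference was -0.48 ± 0.16 in control (limma adjusted p = 0.033) and -0.48 ± 0.16 in treated cells (adjusted p = 0.032). The control call for Sdhb was lost in 8 of 21 alternatives, among them without control replicates 1, 4 or 5, E13.5 replicate 2 or E14.5 replicate 1, and the treated call in 5, among them without treated replicates 1 or 4, E13.5 replicate 2 or E14.5 replicate 1.

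The remaining calls were of similar size. Complex IV subunits Cox5b (0.51 ± 0.10, limma adjusted p = 0.0012), Cox6c (0.54 ± 0.10, adjusted p = 0.0012) and Cox4i1 (0.41 ± 0.13, adjusted p = 0.025) were higher in control cells. So were the complex V subunits Atp5c1 (0.44 ± 0.11), the gamma shaft, and Atp5h (0.42 ± 0.11), a stalk protein, the complex I subunits Ndufa12 (0.51 ± 0.12) and Ndufa13 (0.39 ± 0.10), and the complex III core protein Uqcrc1 (0.40 ± 0.13). Ndufb10 and Ndufs8, both complex I subunits, differed by -0.36 each in control cells and lost the call in 8 and 9 of 21 alternatives. For Ndufb10 these included leaving out control replicates 2, 3, 4 or 5 or E13.5 replicates 2 or 3, and for Ndufs8 control replicates 1, 2, 4 or 5, E13.5 replicate 2 or E14.5 replicate 2. The control call of Uqcrc1 was lost in 5 of 21 alternatives. These were array medians subtracted, E14.5 alone as primary, and leaving out control replicates 1 or 2 or E14.5 replicate 1. That of Cox4i1 was lost in 4: array medians subtracted, quantile normalization, E14.5 alone and without E14.5 replicate 2. Those of Atp5h, Atp5c1, Ndufa13 and Ndufa12 were lost in 3, 2, 2 and 1, with E14.5 alone among them each time. In treated cells Ndufa9 (0.54 ± 0.16, adjusted p = 0.019) and Ndufb9 (0.31 ± 0.11, adjusted p = 0.032) were called in addition. Ndufa9 lost the call in 3 alternatives, with array medians subtracted and with either primary stage alone. Ndufb9 lost it in 9, among them without treated replicates 2 or 4, E13.5 replicate 1 or E14.5 replicate 1. Ndufa6, at 0.63 in control cells, was not called (adjusted p = 0.073), nor was Cox5a, at -0.59, whose lowest levels were on the arrays numbered 5 (9.23 treated, 9.24 control). The number of genes called lower in control cells was 4, and 1 without control replicate 4, without control replicate 5 or without E13.5 replicate 2. In treated cells it was 2, and 5 without treated replicate 2 and 1 without treated replicate 4, E13.5 replicate 2 or E14.5 replicate 1.

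**Figure D3:**
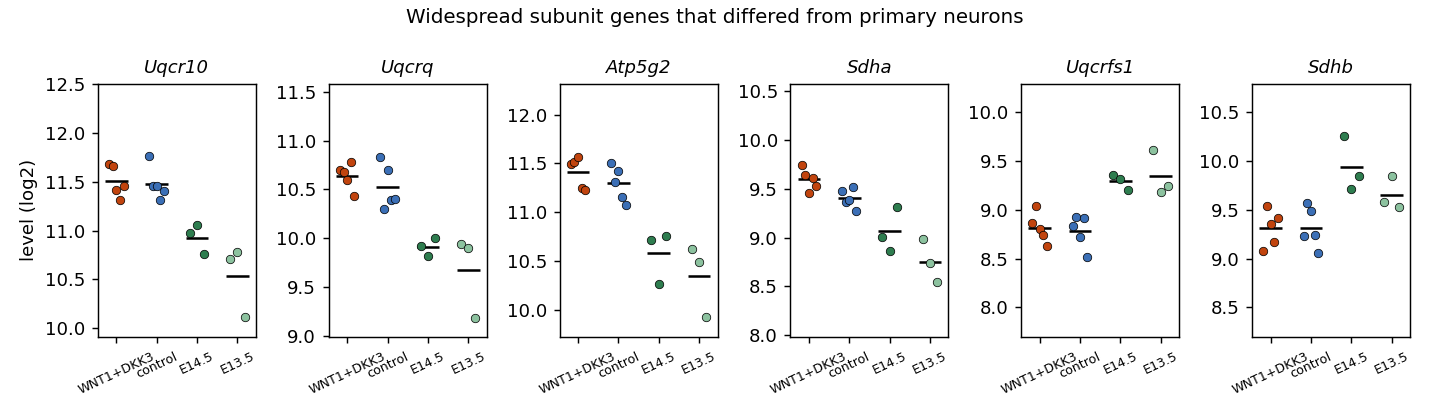
Log2 level of 6 widespread subunit genes on each array, in the order WNT1+DKK3, control, E14.5 and E13.5, with a point per array and a line at the group mean. Uqcr10, Uqcrq and Atp5g2 lie above and Uqcrfs1 below the primary arrays on all 10 iPSC-derived arrays, while the arrays of Sdhb overlap.

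Beside the subunits stand genes that build, supply or regulate the complexes. Of 44 assembly factors, 11 were higher and 6 lower in control cells than in primary neurons. Cox17, a copper chaperone for complex IV, was higher by 2.00 ± 0.23 (limma adjusted p = 2.1e-05), at 10.55, 10.94, 10.45, 10.57 and 9.99 on treated and 10.82, 10.53, 10.49, 10.56 and 10.08 on control arrays, against 8.38, 9.09 and 8.37 at E14.5 and 8.03, 7.70 and 9.41 at E13.5. Cox19, another copper-related factor of the same complex, was lower, by -1.31 ± 0.16 (adjusted p = 4.6e-05), and Atpaf2, which helps to build the head of ATP synthase, was higher by 1.14. Of 18 regulators of mitochondrial biogenesis, 9 were higher and 2 lower: Gabpa, an ETS factor that drives many subunit genes, by 1.21 ± 0.17, Polg2, an accessory subunit of the mitochondrial DNA polymerase, by 1.11, and Esrrg, an estrogen-related receptor, by -1.01. The tricarboxylic acid cycle and pyruvate dehydrogenase had 5 higher and 1 lower of 17, with Suclg2 at 2.83 ± 0.22, Ogdh at 1.25 and Pdha1 at 0.80. Membrane and import proteins had 6 higher and 0 lower of 21, with the import motor Hspa9 at 0.98, the outer membrane channel Vdac1 at 0.85 ± 0.09 and Timm23 at 0.59, and 22 higher and 7 lower were counted among 77 mitochondrial ribosome genes, led by Mrps18b at 1.42. These shares stand beside the 19.3% higher and 22.5% lower of all genes. In treated against control cells 0 genes of these lists were called in limma, and 1, Esrrg (0.41), had an unadjusted p under 0.05.

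Within the iPSC-derived groups the level of the subunits varied between arrays more than between treatments. With each gene centred on its mean over 16 arrays, the median of the 73 subunits other than the 8 tissue-restricted or induced paralogs was 0.26 on treated array 2, 0.11 on treated array 1 and 0.16 on control array 1, and -0.08 on control array 4 and -0.12 on control array 5. Averaged over arrays it was 0.07 ± 0.12 in treated and 0.01 ± 0.12 in control cells (SD, n = 5 each), a difference smaller than the SD of either group. The 8 paralogs (Ndufa4l2, Cox4i2, Cox6a2, Cox6b2, Cox7a1, Cox7b2, Cox8b and Cox8c) were set apart after their values were seen. On array 5 of the treated group 32 of the 81 subunits were below and 7 above all 4 other treated arrays, and on array 5 of the control group 39 were below and 3 above. Of all genes, 25.1% and 28.3% were below and 30.8% and 24.2% above in treated and control cells. The median SD between arrays over the subunits was 0.17 in treated and 0.18 in control cells, close to that of all genes (0.19 in both).

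**Figure D4:**
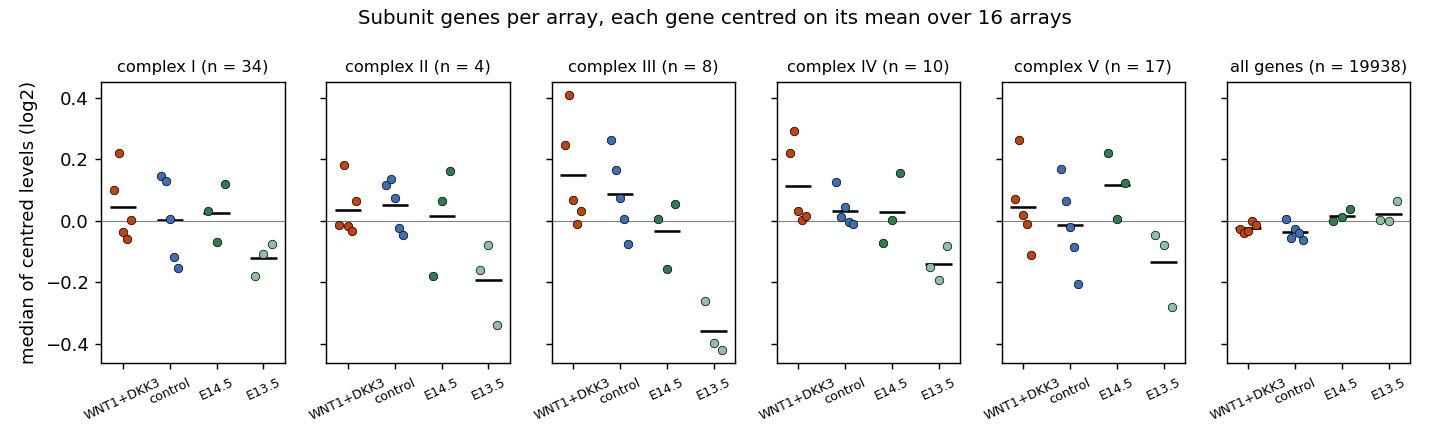
Median over the genes of each complex (and over all genes) of log2 levels centred on each gene's mean over 16 arrays, one point per array and a line at the group mean, with 73 subunits split by complex and the 8 paralogs left out. Complexes I to V run highest on treated array 2 among treated arrays, the E13.5 arrays lie lowest in complex III at -0.42 to -0.26, and the medians of all genes lie between -0.06 and 0.06.

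Between the stages, most subunits were slightly higher at E14.5 than at E13.5. The difference was above 0 for 67 of 81 genes, against 9745 of all 19938 genes and 56.4% of the brightest 25%. Over all 12 alternatives 64 to 71 of the 81 were above 0. The median difference was 0.19 (0.12 after quantile normalization), beside -0.01 for all genes and 0.04 for the brightest 25% of genes. By complex it was 0.19 in complex I, 0.24 in complex II, 0.30 in complex III, 0.02 in complex IV and 0.22 in complex V. Of complex IV, the 10 subunits other than its tissue-restricted or induced paralogs, a split made after the values were seen, had a median of 0.16. All 8 tissue-restricted or induced paralogs were below 0, and so were 6 of the other 73 subunits. Each stage is 1 sample measured on 3 technical arrays, so this has no test, and the arrays show the spread of the measurement and not of embryos.

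Few of these differences were clear of the spread between arrays. The 3 arrays of each stage did not overlap for 11 genes in the higher and 1 in the lower direction, against a background of 4.75% and 4.93% of all genes. Of these, Uqcrb, a ubiquinone-binding subunit of complex III, alone reached 0.5 (0.56), against a background of 1.51% of all genes higher and 1.13% lower. It was at 10.33, 9.48 and 9.40 at E14.5, against 8.97, 9.29 and 9.28 at E13.5, so that 1 array carried most of the difference. Without E14.5 replicate 1, Uqcrb was not called and the single call was another gene, and the count of higher genes was 0 without E13.5 replicate 1, 5 without E13.5 replicate 2, 2 without E14.5 replicate 2 and 3 without E13.5 replicate 3 or E14.5 replicate 3. The other 10 higher genes without overlap were Ndufa10, Ndufa11, Ndufa4, Ndufa5, Ndufa7 and Ndufv3 of complex I and Atp5a1, Atp5j, Atp5j2 and Atp5k of complex V, at 0.19 to 0.44. Atp5k, the e subunit of ATP synthase, was at 11.23, 11.41 and 11.43 at E14.5, against 10.95, 11.09 and 10.72 at E13.5. Cox7b2 was the gene lower without overlap, at 4.36, 4.33 and 3.97 at E14.5, against 4.47, 4.91 and 4.55 at E13.5, all dim.

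Genes with larger differences than most included Uqcrc1 (0.43), Ndufb6 (0.42), Atp5d (0.41), the delta subunit of ATP synthase, and Cox6b2 (-0.44), whose arrays overlapped. Beside them, of 44 assembly factors 2 were higher and 2 lower, with Coa7 at 0.74, of 17 tricarboxylic acid cycle and pyruvate dehydrogenase genes 1 was higher (Idh3a 0.66), of 32 glycolysis and hypoxia genes 1 was higher, with Aldoc at 0.88 and Pdk1 at 0.64, and of 77 mitochondrial ribosome genes 2 were higher and 1 lower. The background over all genes was 1.51% higher and 1.13% lower. The mean of 8 dopaminergic genes was 9.79 to 9.93 at E14.5 and 9.63 to 10.01 at E13.5. That of 7 astrocyte and radial glia genes was 6.46 to 6.82 and 6.11 to 6.39, with Fabp7 higher at 0.84. The part of glial RNA in the subunits' difference was not tested.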

How the data were processed

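The authors deposited log2 expression values for 35556 probe sets on 16 arrays. RMA (background correction, quantile normalization and summary of probes) and Affymetrix Expression Console 1.2 are named in the submitters' processing notes, which do not say if a single run normalized all arrays. Per the labels' protocols, RNA was amplified with a whole-transcriptome kit for small amounts before labelling, which can add spread between arrays. RMA levels are relative, so a change of total RNA per cell is not seen.

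Names came from the platform's annotation (21789 probe sets with 1 symbol, 1621 with several, 12146 not listed), brought up to date by Entrez ID with RefSeq GRCm38.p6. The probe set with the highest mean stood for each of 19938 genes, and 16 subunit genes had several. Array medians over all probe sets were 5.85 to 6.02. Over the 19938 named genes they were 6.37 to 6.44 on iPSC-derived arrays and 6.17 to 6.25 on primary arrays. The alternative with array medians subtracted used these medians of the named genes. Precision is limited by how many arrays each group holds.

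The test was limma 3.58.1 (R 4.3.3; lmFit and eBayes), with Benjamini-Hochberg adjustment over all genes at 0.05. Treated against control used 10 arrays. The fit with primary neurons held 12 samples in 3 groups, the arrays of a stage being averaged to 1 sample. Stages had no test: a gene counted where means differed by at least 0.5 without overlap of arrays. The fits were tested on simulated data with independent noise on each array. That simulation held no effects shared between arrays, such as those of the technical arrays of a stage, so it does not cover them. The deviations from group means of 2 arrays with the same replicate number correlated at 0.04 for number 1 and at 0.52, 0.44, 0.72 and 0.80 for numbers 2 to 5; equal numbers were not taken as pairs, since that needed more than 0.1 in every pair. The members, the gene lists and the alternatives were chosen with earlier results of these data known. Named genes were the 3 members of each complex with the largest difference per comparison, the paralog families, and 3 genes of each other list. Other genes named, such as those kept in all alternatives or without overlap of arrays, were chosen after their values were seen.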

Additional observations from a re-analysis of the deposited data

Results flagged for a closer look

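Among the 43 subunits checked in the 5 treated and 5 control arrays, 8 of 86 groups (9.3%) held 1 array far from the other 4. The cut-off flags about 1 in 20 of independent groups. These groups are not independent, since the subunits share the same arrays and were partly chosen for large differences. The share over all genes was not computed, so no excess can be read from the count. In treated cells these were array 1 for Cox8a (10.773) and Ndufa12 (10.476), both above the others, and array 2 for Ndufb6 (10.570), Sdhd (9.092) and Uqcrc1 (9.388). In control cells they were array 3 for Ndufa12 (10.568), array 4 for Cox7a2 (10.051) and array 5 for Ndufa9 (8.617).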

How the results depend on the processing

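Treated against control kept 0 calls in all 18 alternatives. The fit with the replicate number as a block, as in the paired check, left the subunits' median at 0.04 and called 0 of them (Sdha and Atp5a1, like the rest, stayed above the threshold) and 1 gene of all. Not every treated array correlated best with its own number (treated 3 with control 4 at 0.53, with control 3 at 0.44). Against primary neurons, no call of a named subunit reversed. The count of subunits lower in control cells, 4 in the main setting, was 18 with array medians subtracted, 9 after quantile normalization, 2 without both arrays numbered 5, 1 with either primary stage alone and 12 with the 6 primary arrays and the sample as a random block, and 1 to 5 with 1 array left out. In treated cells it was 2, and 16, 8, 0 (E13.5 alone), 1 (E14.5 alone) and 10 in these settings, and 1 to 5 with 1 array left out. With E14.5 alone, the counts of higher subunits were 9 in control and 10 in treated cells, and the subunits' median was -0.093 in control and -0.057 in treated cells with array medians subtracted. Of the 20 calls in each comparison, 15 were shared with that setting. Subtracting array medians, which were higher on the iPSC-derived arrays, lowered the difference of every gene by the same amount within a comparison. The causes of that gap in medians and of the other shifts were not tested. With a single stage, the stage and the number of primary samples change together. Between stages, the count of higher subunits, 1, was 0 after quantile normalization, 0 at a difference of 1 and 0 to 5 with 1 array left out, and the count of lower ones 0 to 1. Dim probe sets and 2 primary samples limit what could be called.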
